A study of Homo sapiens with 15 samples.

Results

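Of the 35805 gene entries listed for HEK-293T cells with and without a disrupted THAP1 gene, 9 are described here: TOMM40L, AK9, TMEM17, EHD3, TMEM101, FUZ, MAMSTR, PIGV and CSAD. They are protein-coding genes whose transcripts stood higher in cells given a guide against THAP1 (sgTHAP1) than in cells given a control guide (sgControl), and they were picked by name with that difference already known. The difference between sgTHAP1 and sgControl cells is therefore given as a description, with no test. All 9 genes were among the 16787 genes whose level was high enough to be tested. Against untransduced cells the name "raised" held for 5 of the 9 genes only. In these every sgTHAP1 library lay above every untransduced library. TMEM101, PIGV, CSAD and MAMSTR were low in sgControl cells and near or below the untransduced level in sgTHAP1 cells. The line between FUZ and TMEM101 is narrow. With 1 of the guides FUZ was only 1.10-fold above untransduced cells, and TMEM101 had 5 sgTHAP1 libraries above the untransduced range and 1 within it.

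HEK-293T is a line made from human embryonic kidney cells, and the study's scheme of the experiment places every group in 1 knock-in clone of it with GFP as a reporter of PSMB5, a gene of a catalytic proteasome subunit. The groups were sg1-THAP1 and sg2-THAP1 cells, which received Cas9 with 1 of 2 guides against THAP1 by lentivirus, sg1-Control and sg2-Control cells, which received Cas9 with 1 of 2 control guides that target introns of other genes, and untransduced cells, with 3 libraries each and 15 in all. Cells with a THAP1 guide also carried extra PSMB5, which kept them alive, and were sorted for dim GFP, so that each library came from a mixed population of edited cells and not from a single knockout clone. The sources used here do not give whether control and untransduced cells were sorted or carried the extra PSMB5. The study says that the extra PSMB5 kept PSMB5 from being identified as differentially expressed, without naming the groups that carried it. Unless control cells shared them, sorting and the extra PSMB5 cannot be told apart from loss of THAP1 between sgTHAP1 and sgControl cells. Nor can the lentivirus, Cas9 and guide be told from one another between sgControl and untransduced cells. In such populations a smaller share of edited cells and a smaller change per cell cannot be told apart.

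THAP1 is a sequence-specific DNA-binding protein of the THAP zinc finger family, and mutations in its gene cause an inherited dystonia. It is known to work with the cofactor HCFC1 and with YY1, another zinc finger factor that is common at promoters. The 9 genes have no function in common: TOMM40L and AK9 belong to families of mitochondrial outer membrane channels and of nucleotide kinases, TMEM17 and FUZ take part in building the primary cilium, EHD3 in endocytic recycling, PIGV in the synthesis of membrane anchors for proteins and CSAD in taurine synthesis, MAMSTR is a transcriptional coactivator and TMEM101 is a membrane protein.

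Levels are RPM, the reads of a gene scaled by the total reads of its library, on a log2 scale (log2 RPM), so that a difference of 1 is a 2-fold difference and levels of different genes, which differ in length, are not compared. Depth was 30645100 to 47754887 reads in sgTHAP1, 31900204 to 56638455 in sgControl and 30400149 to 36548569 in untransduced libraries. The transcript of THAP1 itself stood higher in the cells given guides against it, at 5.48 to 5.56 with sg1-THAP1 and 6.06 to 6.18 with sg2-THAP1, against 3.25 to 3.57 in sgControl and 3.36 to 3.46 in untransduced libraries. Cas9 leaves insertions and deletions that disrupt the protein and may leave the transcript in place, so these levels do not check the labels. Of 6 markers of the HEK-293 lineage, 6 were detected in every library, of which NEFM and VIM were higher and IRS4 lower in sgTHAP1 than in sgControl cells, as was LHX1 (-0.48, limma adjusted p = 0.0313), which did not pass with no filter (0.127), after quantile normalization (0.128) or median centring (0.0935), or without any single sg1-Control library (0.0687 to 0.0771) or sg1-THAP1 replicate 2 (0.072). IRS4 had 4877 to 7486 reads with sgTHAP1, 13394 to 24284 with sgControl and 11739 to 14304 without a virus (log2 difference of sgTHAP1 and sgControl -1.40, standard error 0.02, limma adjusted p = 6.3e-20). PTPRC, a marker of all white blood cells, had at most 3 reads in a library. Of the 6 blood markers 3 were high enough to be tested, of which 0 passed an adjusted or an unadjusted p of 0.05 between sgTHAP1 and sgControl cells in limma. Against untransduced cells CD14 was higher in sgControl (log2 difference 1.87, limma adjusted p = 3.3e-05) and sgTHAP1 cells (1.44, 4.54e-04). CD68 was higher as well (0.80, adjusted p = 0.00322, and 0.87, 0.00138), and ITGAM did not pass (0.166 and 0.087). CD14 had at most 44 reads in a library and CD68 at most 129. Of 6 lung and squamous markers only NKX2-1 was tested, with 11 to 39 reads in sgTHAP1, 26 to 87 in sgControl and 95 to 121 in untransduced libraries, and its part in the results was not tested. KRT5, KRT14, KRT6A, TP63 and SFTPB had at most 3 reads. The sgControl libraries stood far from the untransduced ones: 11523 genes, or 68.6% of those tested, passed an adjusted p of 0.05 in limma between these 2 groups, and 1854 of them passed an adjusted p of 0.001 with more than a 2-fold difference.

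Where the 9 genes begin bears on which factors could bind them, so the promoters that hold letters of known motifs are shown first. RefSeq (GRCh38.p14) gave 300 bases of promoter, 250 before the start of transcription and 50 after it, for 8 of the 9 genes, in 12 windows since MAMSTR and PIGV have several starts. TMEM101 is named only. A set of letters bound by YY1 (AANATGG, reverse complement CCATNTT) stood in 4 of the 12 windows, each of another gene, and in 15.6% of all 35116 windows in the table. The letters of the THAP1 motif (TNNNGGCA, reverse complement TGCCNNNA) stood in 8 of the 12 windows, which belong to 7 genes, and in 41.7% of all windows. The 7 letters ACTACAA, part of the motif of the related factor THAP11, stood in 0 of the 12 windows and in 2.77% of all windows. The sequences of 4 genes with both YY1 and THAP1 letters are given because they show how close these letters lie, and that of CSAD because it has THAP1 letters alone. Each runs 5′ to 3′ on the gene's strand over 190 bases, 160 before the start and 30 from the start on, with the matches in capitals.
TOMM40L (chr1:161225900-161226089, plus strand): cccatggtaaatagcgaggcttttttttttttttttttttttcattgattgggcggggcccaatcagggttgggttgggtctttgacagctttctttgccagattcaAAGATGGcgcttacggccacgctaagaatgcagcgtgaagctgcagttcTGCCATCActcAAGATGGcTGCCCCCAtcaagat
EHD3 (chr2:31233992-31234181, plus strand): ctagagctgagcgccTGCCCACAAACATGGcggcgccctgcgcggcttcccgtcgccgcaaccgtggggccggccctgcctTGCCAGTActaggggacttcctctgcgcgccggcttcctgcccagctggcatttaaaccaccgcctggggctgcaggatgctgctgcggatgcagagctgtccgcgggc
FUZ (chr19:49813263-49813452, minus strand): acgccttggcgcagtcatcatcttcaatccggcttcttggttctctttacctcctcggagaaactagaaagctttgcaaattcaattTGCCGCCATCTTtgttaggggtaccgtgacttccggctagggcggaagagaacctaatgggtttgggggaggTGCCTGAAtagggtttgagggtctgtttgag
PIGV (chr1:26787790-26787979, plus strand): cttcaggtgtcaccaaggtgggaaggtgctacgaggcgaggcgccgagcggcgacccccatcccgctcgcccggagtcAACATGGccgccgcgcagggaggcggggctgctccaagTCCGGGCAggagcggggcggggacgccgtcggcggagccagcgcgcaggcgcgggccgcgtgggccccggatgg
CSAD (chr12:53180617-53180806, minus strand): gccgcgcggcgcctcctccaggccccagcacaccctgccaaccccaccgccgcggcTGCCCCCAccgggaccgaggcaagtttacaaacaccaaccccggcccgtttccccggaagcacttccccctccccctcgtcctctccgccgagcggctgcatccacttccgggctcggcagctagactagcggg

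The TOMM40L window held the YY1 letters in 2 places, 53 bases before the start and at base 8 after it, which 1.66% of all windows did, and the THAP1 letters in 2 places, 4 bases before the start and at base 16 after it. In EHD3 the THAP1 letters began 145 bases before the start and the YY1 letters followed directly, 137 bases before it. Another match to THAP1 in EHD3 began 79 bases before the start, apart from the YY1 letters. In FUZ 1 match to THAP1 began 73 bases before the start and shared 3 bases with the YY1 match that began 68 bases before it. Further matches to THAP1 in FUZ began 227 bases and 1 base before the start and shared none. In PIGV the YY1 letters lay 82 bases and the THAP1 letters 44 bases before the start of the second of 4 listed windows. The third window of PIGV had THAP1 letters alone, 176 bases before its start. CSAD had THAP1 letters 104 bases before its start and AK9 65 bases before and at base 24 after its start, and MAMSTR had them only 247 bases before the start of its second window. TMEM17 had none of the 3 sets of letters. A match of this kind is a run of letters and not a measured binding site, and in a shorter window of 200 bases, which ends at the same base, 4 of the 12 windows held the YY1 letters, against 10.6% of all windows, and 6 of the 12 held the THAP1 letters, against 10547 of all 35116. The starts in the table used here differed from those of RefSeq by 5699 bases for TMEM17 and 4084 bases for FUZ, and by 121 to 478 bases for the other 4 windows printed.

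In sgTHAP1 libraries TOMM40L, AK9, EHD3, TMEM17 and FUZ were each higher than in all 9 other libraries. Such a separation was seen for 1195 of the 16787 tested genes, or 7.12%, and since these genes were picked on the contrast of sgTHAP1 and sgControl nothing is read from their number. The plot of levels by library shows all 9 genes.

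**Figure D1:**
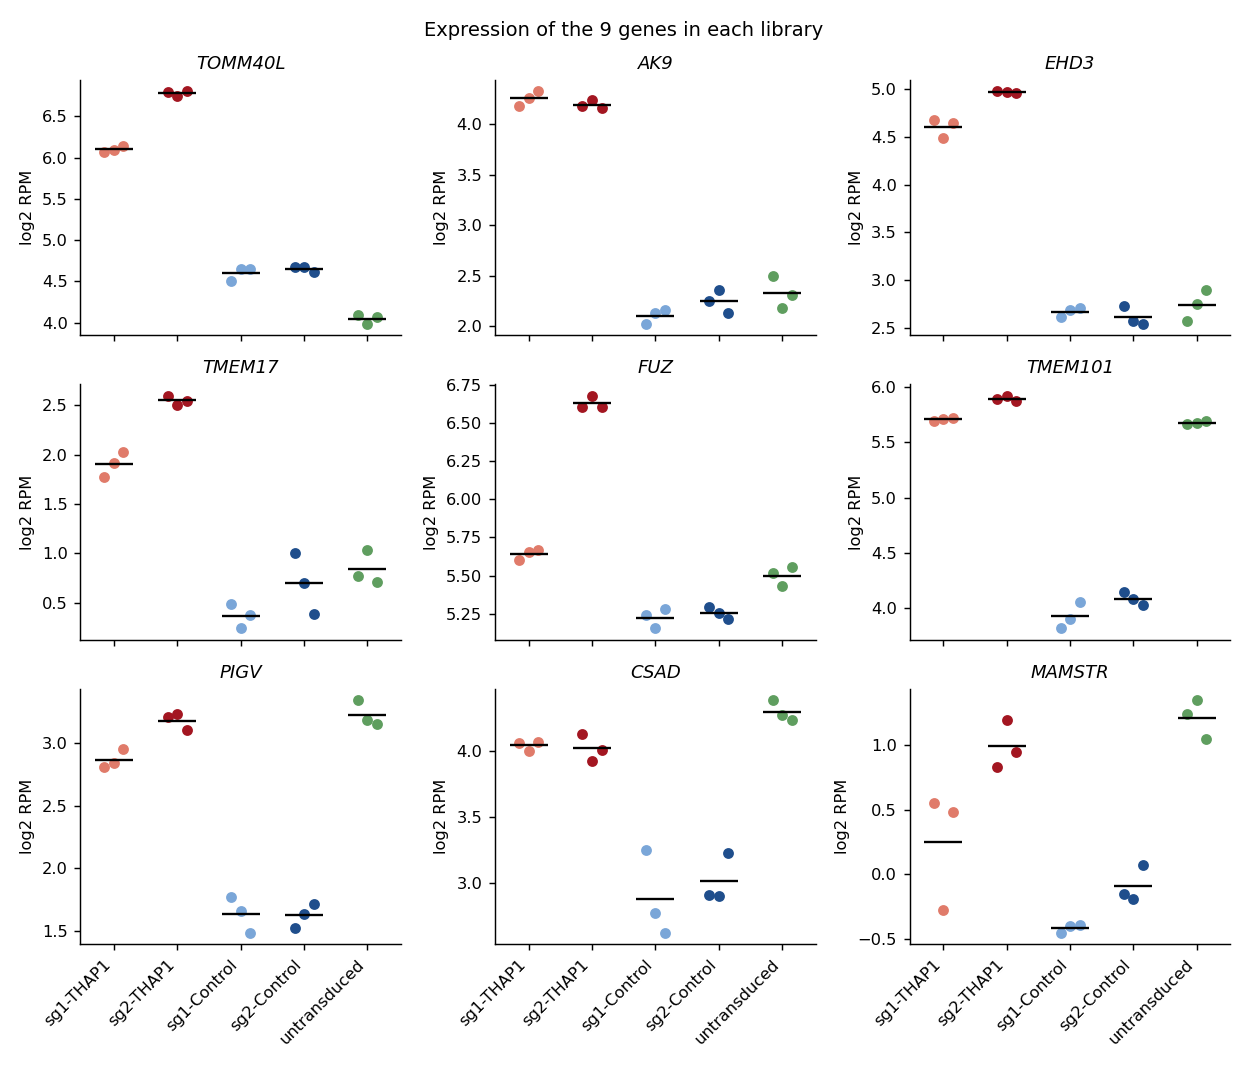
Level of each of the 9 genes in log2 RPM (y axis, a separate scale for each gene) in the 3 libraries of each group (x axis). Points are libraries and black lines are the means of 3. The first 5 panels have the sgTHAP1 libraries above all others. The control guides have the lowest group means in every panel but that of TOMM40L. They lie furthest below untransduced cells in TMEM101, PIGV, CSAD and MAMSTR.

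TOMM40L encodes a relative of TOMM40, the channel through which proteins enter mitochondria, and lies on chromosome 1 of GRCh38 from base 161225939 to 161230744. Its level was 6.07, 6.09 and 6.14 log2 RPM with sg1-THAP1 and 6.80, 6.75 and 6.80 with sg2-THAP1, against 4.51 to 4.68 in sgControl libraries (median 4.65, n = 6) and 4.09, 3.99 and 4.07 in untransduced libraries. The 3 conditions did not overlap, with sgTHAP1 highest and untransduced cells lowest. In sgTHAP1 cells TOMM40L stood 3.52-fold above sgControl (log2 difference 1.81, standard error 0.11) and 5.25-fold above untransduced cells (2.39, standard error 0.14). It was the only 1 of the 9 genes whose sgControl libraries were all above the untransduced ones, by 1.49-fold (log2 difference 0.58, standard error 0.14).

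AK9, a kinase that transfers phosphate between nucleotides, lies on chromosome 6 from 109492856 to 109691217 on the minus strand. Its 3 sg1-THAP1 libraries had 4.18, 4.26 and 4.32 log2 RPM and its sg2-THAP1 libraries 4.18, 4.23 and 4.16, against 2.02 to 2.35 in sgControl libraries (median 2.14) and 2.49, 2.18 and 2.31 in untransduced libraries. Its sgControl and untransduced libraries overlapped, and the sgTHAP1 libraries stood 4.13-fold above sgControl (log2 difference 2.05, standard error 0.07) and 3.72-fold above untransduced cells (1.89, standard error 0.09). These levels rest on 556 to 853 reads per sgTHAP1 library and 154 to 248 per sgControl library.

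EHD3, an ATPase of the dynamin-like EHD family that shapes membranes of recycling endosomes, lies on chromosome 2 from 31234337 to 31269447. Its level was 4.68, 4.49 and 4.65 log2 RPM with sg1-THAP1 and 4.98, 4.97 and 4.96 with sg2-THAP1, against 2.54 to 2.73 in sgControl libraries (median 2.65) and 2.57, 2.74 and 2.89 in untransduced libraries. Again the control and untransduced libraries overlapped and the sgTHAP1 libraries lay apart. The difference from sgControl was 4.43-fold (log2 2.15, standard error 0.09), the largest among the 9 genes, and that from untransduced cells 4.15-fold (2.05, standard error 0.10).

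TMEM17, which sits in the membrane of the transition zone, the gate at the base of the cilium, lies on chromosome 2 from 62500221 to 62511894 on the minus strand. It had 1.78, 1.92 and 2.03 log2 RPM with sg1-THAP1 and 2.59, 2.51 and 2.55 with sg2-THAP1, against 0.24 to 1.0 in sgControl libraries (median 0.44) and 0.77, 1.04 and 0.71 in untransduced libraries. The lowest sgTHAP1 library, at 1.78, was above the highest of the other 9, at 1.04. TMEM17 was 3.24-fold higher than in sgControl (log2 difference 1.70, standard error 0.16) and 2.62-fold higher than in untransduced cells (1.39, standard error 0.20), on 105 to 279 reads per sgTHAP1 library and 46 to 71 per sgControl library. After quantile normalization the log2 difference of TMEM17 from untransduced cells was 2.11.

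FUZ, a part of the CPLANE complex that brings intraflagellar transport particles to the base of the cilium, lies on chromosome 19 from 49806869 to 49817376 on the minus strand. Its level was 5.60, 5.66 and 5.67 log2 RPM with sg1-THAP1 and 6.60, 6.68 and 6.60 with sg2-THAP1, against 5.16 to 5.30 in sgControl libraries (median 5.25) and 5.51, 5.43 and 5.56 in untransduced libraries. All 3 conditions were apart, but the lowest sg1-THAP1 library exceeded the highest untransduced library only by the difference of 5.60 and 5.56. Pooled over guides FUZ was 1.86-fold above sgControl (log2 difference 0.89, standard error 0.16) and 1.55-fold above untransduced cells (0.63, standard error 0.20).

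The remaining 4 genes had another pattern. TMEM101, PIGV and CSAD were lower in all 6 sgControl libraries than in the 9 others, as was FUZ, and this was the case for 671 of all tested genes, or 4.00%. In TMEM101, PIGV, CSAD and MAMSTR the mean of the sgTHAP1 libraries was nearer to untransduced than to sgControl cells. Their log2 differences from untransduced cells were -0.59 to 0.12. Being nearer to untransduced cells was not particular to these genes. It held for AK9 (1.89, against 2.05 from sgControl), EHD3 (2.05 and 2.15), TMEM17 (1.39 and 1.70) and FUZ (0.63 and 0.89). Only TOMM40L was nearer to sgControl (1.81) than to untransduced cells (2.39). With sg1-THAP1 alone MAMSTR was nearer to sgControl (log2 difference 0.50) than to untransduced cells (-0.96). Because sgControl libraries entered the choice of the genes, this too is a description.

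TMEM101, a predicted multi-pass membrane protein on chromosome 17 from 44011188 to 44023946 on the minus strand, had 5.69, 5.71 and 5.72 log2 RPM in sg1-THAP1 libraries and 5.88, 5.92 and 5.87 in sg2-THAP1 libraries, against 3.82 to 4.15 in sgControl libraries (median 4.05) and 5.66, 5.67 and 5.69 in untransduced libraries. Of its 6 sgTHAP1 libraries 1 lay within the untransduced range and 5 above it. TMEM101 was 3.46-fold above sgControl (log2 difference 1.79, standard error 0.06) and 1.09-fold above untransduced cells (0.12, standard error 0.07), while sgControl cells held 31.5% of the untransduced level (log2 difference -1.66, standard error 0.07). After median centring the log2 difference of sgTHAP1 from untransduced cells was 0.39, and after quantile normalization 0.11.

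PIGV, the enzyme that adds the second mannose to the glycosylphosphatidylinositol (GPI) anchor, lies on chromosome 1 from 26787472 to 26798398. It had 2.81, 2.84 and 2.95 log2 RPM with sg1-THAP1 and 3.21, 3.23 and 3.10 with sg2-THAP1, against 1.48 to 1.76 in sgControl libraries (median 1.65) and 3.34, 3.18 and 3.15 in untransduced libraries. The sgTHAP1 libraries overlapped the untransduced ones, with 2 of 6 inside their range and 4 below it. PIGV was 2.63-fold above sgControl (log2 difference 1.39, standard error 0.09), and its difference from untransduced cells, -0.20 (standard error 0.11), was 0.28 after quantile normalization and 0.07 after median centring.

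CSAD, the decarboxylase of cysteine sulfinic acid in taurine synthesis, lies on chromosome 12 from 53157663 to 53180909 on the minus strand. Its level was 4.06, 4.00 and 4.07 log2 RPM with sg1-THAP1 and 4.13, 3.92 and 4.01 with sg2-THAP1, against 2.62 to 3.25 in sgControl libraries (median 2.90) and 4.39, 4.28 and 4.24 in untransduced libraries. In CSAD all 6 sgTHAP1 libraries were below the 3 untransduced ones. The difference from sgControl was 2.13-fold (log2 1.09, standard error 0.09) and that from untransduced cells -0.27 (standard error 0.11), which was 0.0051 after median centring.

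MAMSTR, a coactivator of the MEF2 transcription factors known from mouse muscle cells, lies on chromosome 19 from 48712742 to 48719721 on the minus strand. It had 0.55, -0.28 and 0.48 log2 RPM with sg1-THAP1 and 0.84, 1.20 and 0.95 with sg2-THAP1, against -0.45 to 0.07 in sgControl libraries (median -0.29) and 1.24, 1.35 and 1.05 in untransduced libraries. Its sgTHAP1 and sgControl libraries overlapped, since sg1-THAP1 replicate 2 was at -0.28 and the highest sgControl library at 0.07, and 5 of the 6 sgTHAP1 libraries were below the untransduced range. The gene was 1.83-fold above sgControl (log2 difference 0.87, standard error 0.20) and its difference from untransduced cells was -0.59 (standard error 0.25), or 0.14 after quantile normalization. In sgControl cells MAMSTR was at 36.2% of the untransduced level (log2 difference -1.46, standard error 0.25), which was -0.88 after quantile normalization. With 26 to 92 reads per sgTHAP1 library and 27 to 43 per sgControl library it was the least well measured of the 9 genes.

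The plot of both differences from untransduced cells sets the patterns side by side. The differences share the untransduced libraries, so that their positions are not independent. The median over all tested genes was -0.20 for sgTHAP1 against untransduced cells, -0.12 for sgControl against untransduced cells and -0.06 for sgTHAP1 against sgControl, and the 9 genes are to be read relative to these shifts. The small differences of sgControl from untransduced cells in AK9 (-0.15), EHD3 (-0.09) and TMEM17 (-0.31) became 0.33, 0.34 and 0.29 after quantile normalization, and those of AK9 and EHD3 were 0.0027 and 0.06 after median centring.

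**Figure D2:**
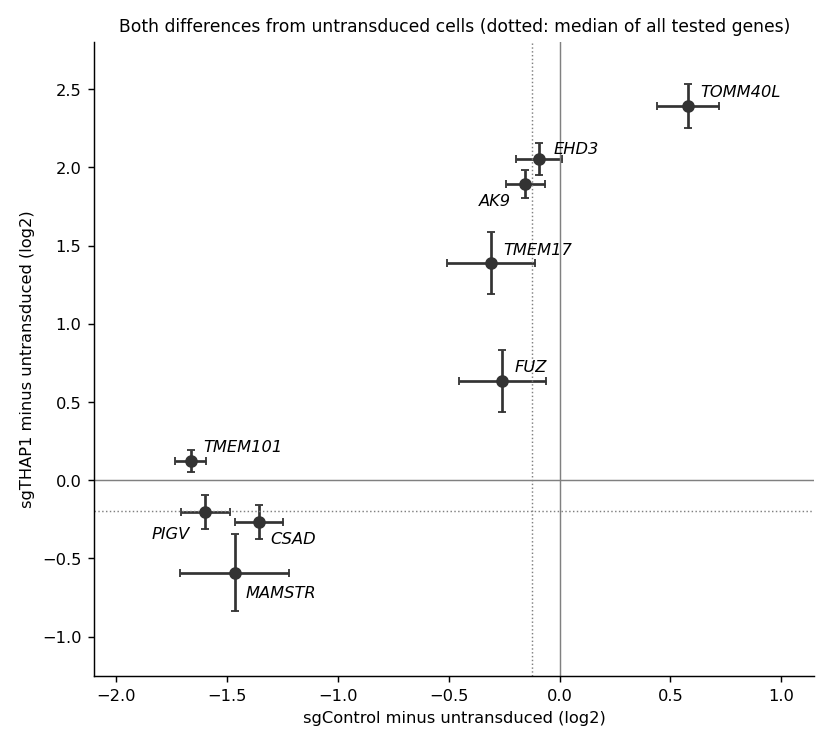
Log2 difference from untransduced cells in sgTHAP1 cells (y axis) and in sgControl cells (x axis) for the 9 genes, with limma standard errors as bars and dotted lines at the median of all tested genes. TOMM40L, EHD3, AK9, TMEM17 and FUZ lie high with sgTHAP1, and TMEM101, PIGV, CSAD and MAMSTR lie between -1.66 and -1.35 with sgControl and between -0.59 and 0.12 with sgTHAP1.

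At an adjusted p under 0.001 with more than a 2-fold difference, the thresholds of the study, 58 genes or 0.346% of those tested were higher in sgTHAP1 than in sgControl cells, 44 of them protein-coding. The study applied its thresholds after setting aside genes that differed between untransduced cells and cells with control guides, a step not taken here. That step bears on TMEM101 (log2 difference of sgControl and untransduced cells -1.66), PIGV (-1.60) and CSAD (-1.35). Since the 9 genes were picked on the contrast of sgTHAP1 and sgControl, their share of the 58 is only a description: 7 of the 9 are in it, and FUZ (1.86-fold) and MAMSTR (1.83-fold) are under 2-fold. By size of the difference among the 44, EHD3 ranked 7, AK9 8, TOMM40L 13, TMEM101 14, TMEM17 17, PIGV 28 and CSAD 39. At an adjusted p under 0.05 without a fold, 20.2% of the tested genes were higher and 32.6% lower in sgTHAP1 than in sgControl cells.

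The choice of the genes took both guides against THAP1 together, so that the difference between sg1-THAP1 and sg2-THAP1 cells could be tested. In sg1-THAP1 cells 7 of the 9 genes were lower than in sg2-THAP1 cells at a p under 0.05 after adjustment over every tested gene (limma, 1 coefficient per guide). Over all tested genes 28.3% were lower in sg1-THAP1 cells and 40.0% differed in either direction. FUZ differed most, with a level in sg1-THAP1 cells of 50.5% of that in sg2-THAP1 cells (log2 difference -0.99, standard error 0.04, limma adjusted p = 3.35e-21). Relative to sgControl it was 1.32-fold higher with sg1-THAP1 and 2.61-fold higher with sg2-THAP1, and relative to untransduced cells 1.10-fold and 2.19-fold higher. TOMM40L (log2 difference -0.68, standard error 0.05, limma adjusted p = 4.03e-15), TMEM17 (-0.64, standard error 0.18, adjusted p = 0.00384) and EHD3 (-0.36, standard error 0.09, adjusted p = 5.9e-04) were lower with sg1-THAP1 as well, and in each of them every sg1-THAP1 library was below every sg2-THAP1 library. How many of all tested genes were separated in this way was not counted. The smallest difference from sgControl with a single guide in TOMM40L, TMEM17 and EHD3 was that of TMEM17 with sg1-THAP1, 2.59-fold.

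The 4 genes low in sgControl cells differed between the guides by -0.74 to 0.02. TMEM101 was lower with sg1-THAP1 by a log2 difference of -0.18 (standard error 0.05, limma adjusted p = 0.00428), with 5.69 to 5.72 against 5.87 to 5.92, and the difference was within error after quantile normalization (limma adjusted p = 0.102) or median centring (0.223). For PIGV the difference was -0.31 (standard error 0.11, limma adjusted p = 0.0265), with adjusted p of 0.16 and 0.145 under the same scalings and of 0.0682 to 0.0875 without sg1-THAP1 replicate 1 or 2 or without sg2-THAP1 replicate 1 or 2. MAMSTR was 0.74 lower on the log2 scale with sg1-THAP1 (standard error 0.25, limma adjusted p = 0.0143), which was 0.48 lower without sg1-THAP1 replicate 2 (adjusted p = 0.146), 0.64 lower without sg2-THAP1 replicate 2 (0.0765) and had an adjusted p of 0.0605 with no filter on low genes. AK9 (0.06, standard error 0.10, limma adjusted p = 0.64) and CSAD (0.02, standard error 0.10, adjusted p = 0.886) did not differ beyond their error between the guides. The transcript of THAP1 was also lower with sg1-THAP1 than with sg2-THAP1, by -0.59 (standard error 0.07, limma adjusted p = 6e-10).

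**Figure D3:**
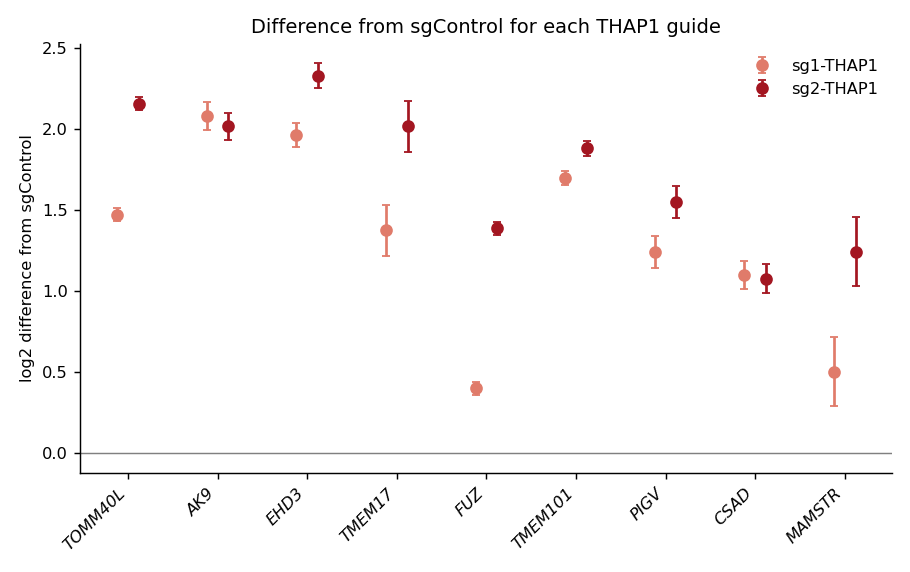
Log2 difference from sgControl (y axis) for sg1-THAP1 and sg2-THAP1 in each of the 9 genes, with limma standard errors as bars. FUZ (0.40 and 1.39) and MAMSTR (0.50 and 1.24) have the widest gap between the guides, and AK9 (2.08 and 2.02) and CSAD (1.10 and 1.08) the narrowest.

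Between sg1-Control and sg2-Control cells 0 of the 9 genes passed an adjusted p of 0.05 in limma or in voom, against 652 of all tested genes or 3.88% at this adjusted p in limma. At an unadjusted p of 0.05 the count was 1 of the 9, TMEM101. TMEM101 came nearest, at 3.82, 3.90 and 4.06 log2 RPM with sg1-Control and 4.15, 4.08 and 4.04 with sg2-Control (log2 difference -0.16, standard error 0.05, limma adjusted p = 0.073). Without sg1-Control replicate 3 it was -0.23 (adjusted p = 0.0137) and without sg2-Control replicate 3 it was -0.19 (adjusted p = 0.0499). Either control guide gave the low level of TMEM101, PIGV, CSAD and MAMSTR: relative to untransduced cells the log2 difference was -1.75, -1.59, -1.42 and -1.63 with sg1-Control, and -1.58, -1.60, -1.29 and -1.30 with sg2-Control.

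The genes beside the 9 were compared to see whether whole stretches of a chromosome were higher. These were 19 tested genes of the table used here that overlapped 1 of the 9, began within 2000 bases of its start or were the nearest on either side. At an adjusted p under 0.05 in limma 3 of them were higher and 10 lower in sgTHAP1 than in sgControl cells, and 6 did not pass, with a median log2 difference of -0.14. After median centring the split was 6 higher and 6 lower, and after quantile normalization 4 higher and 6 lower. SDHC beside TOMM40L, a subunit of respiratory complex II, was at -0.01 (standard error 0.03, limma adjusted p = 0.77).

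By the starts listed with the deposited values, 3 genes begin within 2000 bases of the start of 1 of the 9, and these were lower in sgTHAP1 cells. For FUZ the RefSeq start, used for its promoter above, lies 4084 bases from the listed start and further from MED25. FIG4, a phosphoinositide phosphatase, begins 95 bases from the start of AK9 on the opposite strand and was lower in sgTHAP1 cells by -0.47 (standard error 0.05, limma adjusted p = 3.39e-07). ZNF740, a zinc finger gene, begins 209 bases from the start of CSAD on the opposite strand, overlaps it and was lower by -0.59 (standard error 0.07, adjusted p = 1.43e-06). MED25, a Mediator subunit that begins 903 bases from the start of FUZ, was at -0.13 (standard error 0.04, adjusted p = 0.0114), and AP2A1, an adaptin gene whose end overlaps that of FUZ on the opposite strand, was at -0.21 (standard error 0.04, adjusted p = 2.77e-04). After median centring MED25 was at -0.02 (adjusted p = 0.756) and AP2A1 at -0.10 (adjusted p = 0.132). The libraries were strand-specific, but whether the counting used strand is not stated, so reads in the overlaps of CSAD with ZNF740 and of FUZ with AP2A1 may be counted for either gene.

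Among the nearest genes further off, ZBTB24 beside AK9 (-0.37), B3GNT2 beside TMEM17 (-0.46) and ARID1A beside PIGV (-0.28) were lower in sgTHAP1 cells, at limma adjusted p of 1.43e-05, 5.1e-06 and 1.02e-04, and ZDHHC18 on the other side of PIGV was higher (0.18, adjusted p = 0.00376). EHBP1 beside TMEM17 (-0.14, adjusted p = 0.0139) was at -0.03 after median centring (adjusted p = 0.605). MEMO1 beside EHD3 (0.11), LSM12 beside TMEM101 (-0.03), RASIP1 beside MAMSTR (0.07), and IGFBP6 (-0.04) and RARG (-0.20) beside CSAD did not pass, at adjusted p of 0.0569 to 0.95 in limma. Under median centring MEMO1 was at 0.23, SDHC at 0.10 and LSM12 at 0.09, which then passed (adjusted p = 0.00468, 0.0087 and 0.0478). The other 4 had few reads and lost their call under several settings. NAGS beside TMEM101 had 5 to 30 reads with sgTHAP1 and 15 to 38 with sgControl (-0.90, adjusted p = 0.0315), and GALNT14 beside EHD3 had 0 to 5 and 3 to 15 (-1.69, adjusted p = 0.0185). TSKS beside FUZ had 5 to 27 reads in sgTHAP1, 5 to 14 in sgControl and 27 to 34 in untransduced libraries (0.86, adjusted p = 0.031), and NTN5 beside MAMSTR had 0 to 15, 1 to 7 and 9 to 15 (1.56, adjusted p = 0.0389). With no filter on low genes NAGS, TSKS and NTN5 had adjusted p of 0.119, 0.163 and 0.0757, and with a pseudocount of 0.5 RPM GALNT14 had 0.0683.

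**Figure D4:**
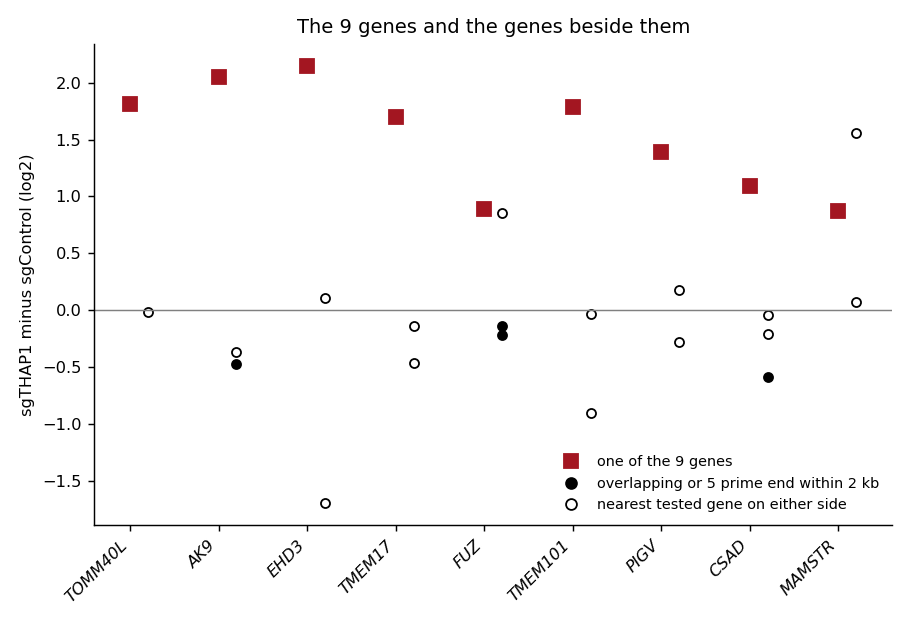
Log2 difference of sgTHAP1 and sgControl cells (y axis) for the 9 genes (squares) and the 19 tested genes beside them (circles, filled where the gene overlaps or begins within 2000 bases of the start). The squares lie at 0.87 to 2.15 and the filled circles at -0.59 to -0.13.

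Other genes of the pathways to which the 9 belong, TMEM101 excepted, were followed in 8 lists that hold none of the 9. Of 132 genes 127 were tested, of which 37 were higher and 34 lower in sgTHAP1 than in sgControl cells at an adjusted p under 0.05 (limma), and 0 passed both thresholds of the study. Their median log2 difference was -0.004. After median centring 59 were higher and 24 lower, and after quantile normalization 46 and 27, so that the balance of directions depends on the scale. Over all tested genes 38.2% of those that differed were higher as deposited, 51.9% after quantile normalization and 58.9% after median centring.

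In the transition zone of the cilium, where TMEM17 acts, 8 of 19 tested genes were higher and 4 lower (median 0.15). TMEM216 (0.41, standard error 0.10, limma adjusted p = 0.0012) and TMEM218 (0.31, standard error 0.06, adjusted p = 1.12e-04), both membrane proteins of this zone, were higher, and the scaffold genes CC2D2A (-0.57, standard error 0.13, adjusted p = 0.00106) and AHI1 (-0.37, standard error 0.07, adjusted p = 2.27e-04) were lower. In the CPLANE complex and the intraflagellar transport complex A with which FUZ works, 1 of 11 genes was higher and 7 lower (median -0.26). IFT43 was higher (0.19, standard error 0.06, limma adjusted p = 0.00803), and IFT140 (-0.43, standard error 0.05, adjusted p = 9.96e-07) and CPLANE1, a CPLANE subunit listed as C5orf42 (-0.40, standard error 0.09, adjusted p = 9.62e-04), were lower. 

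GPI anchor synthesis, the pathway of PIGV, had 12 of 29 genes higher and 6 lower (median -0.03, or 0.09 after median centring, where 14 were higher and 1 lower). MPDU1, which helps the use of mannose donors, averaged 6.52 log2 RPM in sgTHAP1 cells, 5.70 in sgControl cells and 4.60 in untransduced cells (log2 difference of sgTHAP1 and sgControl 0.82, standard error 0.04, limma adjusted p = 1.05e-12). PIGF, needed for the ethanolamine phosphate of the anchor, was higher by 0.42 (standard error 0.05, adjusted p = 9.52e-07). The inositol deacylase PGAP1 was lower (-0.44, standard error 0.05, adjusted p = 7.21e-07) and so was PIGT of the transamidase (-0.22, standard error 0.05, adjusted p = 5.7e-04), which after median centring had an adjusted p of 0.119.

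For CSAD, 6 of 9 genes of a list for taurine and sulphur amino acid metabolism were tested, with 0 higher and 3 lower (median -0.65). The list also held the glutamate decarboxylase genes GAD1 and GAD2, which lie outside this metabolism and did not pass (limma adjusted p = 0.308 and 0.147). GAD2 had 1 to 15 reads in sgTHAP1 and 4 to 49 in sgControl libraries, and its difference of -1.05 enters the median. The taurine transporter SLC6A6 (-0.82, standard error 0.07, limma adjusted p = 3.62e-09) and CBS, which makes cystathionine (-0.75, standard error 0.07, adjusted p = 1.59e-08), were lower. CBS was also lower in sgControl than in untransduced cells, with means of 2.95 log2 RPM in sgTHAP1, 3.70 in sgControl and 5.02 in untransduced cells. Among the kinases of nucleoside mono- and diphosphates, the family of AK9, 7 of 17 tested genes were higher and 2 lower (median 0.08). NME6 (0.38, limma adjusted p = 1.02e-05) and AK6 (0.34, adjusted p = 7.3e-07) were higher, and AK7, of which sgTHAP1 libraries had 25 to 35 reads and sgControl libraries 40 to 91 (-0.77, adjusted p = 3.59e-04), and the mitochondrial AK4 (-0.36, adjusted p = 3.41e-07) were lower.

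Of the genes for protein import and channels of the mitochondrial outer membrane, beside which TOMM40L belongs, 7 of 15 were higher and 1 lower (median 0.08, or 13 and 1 after median centring). MTX2 (0.42, limma adjusted p = 6.43e-08) and TOMM7 (0.34, adjusted p = 2.78e-07) were higher and MTX3 was lower (-0.43, adjusted p = 9.01e-06). For EHD3, 2 of 18 genes of EHD proteins and endocytic recycling were higher and 5 lower (median -0.03), and after median centring 6 were higher and 3 lower. RAB11A, a GTPase of recycling endosomes (0.17, adjusted p = 5.55e-04), and EHD1 (0.15, adjusted p = 0.00895) were higher and RAB11FIP2 (-0.34, adjusted p = 6.4e-04) and EHD4 (-0.31, adjusted p = 3.01e-06) were lower (all by limma), so that EHD1 and EHD4, both paralogues of EHD3, differed in direction. The list for MAMSTR held MEF2 factors and related coactivators. It also held SRF, MYOD1 and the deacetylase genes HDAC4, HDAC5, HDAC7 and HDAC9, which are not coactivators. Of the 13 genes 12 were tested, with 0 higher and 6 lower (median -0.39), and after median centring 2 were higher and 6 lower. HDAC5 was among the 6 lower (-0.67, limma adjusted p = 7.07e-07). MEF2C (-0.72, limma adjusted p = 1.38e-07) and MEF2D (-0.67, adjusted p = 2.16e-10) were lower.

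**Figure D5:**
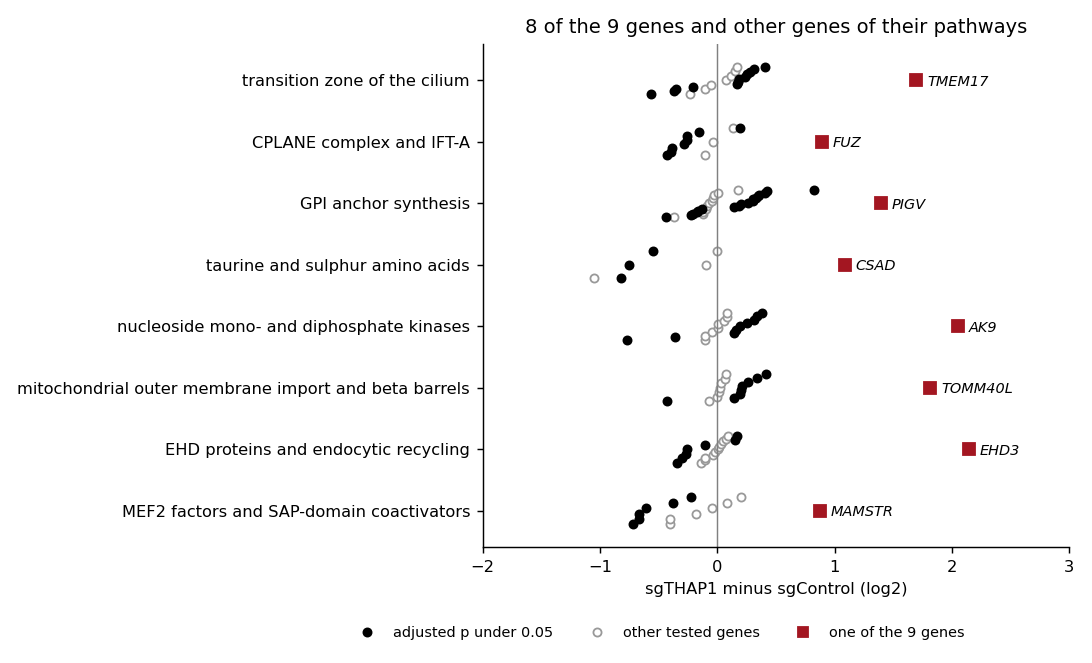
Log2 difference of sgTHAP1 and sgControl cells (x axis) for 8 of the 9 genes (squares, TMEM101 left out) and for the tested genes of 8 pathway lists (circles, filled at an adjusted p under 0.05). In each row the gene described here lies to the right of every other gene of its list, with the nearest other gene MPDU1 at 0.82 and PIGV at 1.39. The genes described here were picked on the difference plotted, so nothing is read from their place.

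The genes with the most similar course over the 15 libraries were looked up for each of the 9, by the root mean square of the log2 differences after each gene was centred on its own mean, among 13407 genes with a mean level of at least 0. The libraries share their depth and group, so this is a description of likeness. The profile closest to EHD3 was that of THAP1 itself (0.19), with means of 5.82 log2 RPM in sgTHAP1, 3.45 in sgControl and 3.42 in untransduced cells. AK9 was most like ALG12, a mannosyltransferase (0.22), which had means of 6.10, 4.46 and 4.57 in these groups, and TOMM40L most like AKT1S1, a subunit of the mTOR complex (0.25), with means of 8.55, 6.66 and 6.03. AKT1S1 was also the next closest to AK9 (0.31) and to EHD3 (0.31), and KPTN (0.27) to TOMM40L. For TMEM17 these were SCYL3 (0.28) and ALG12 (0.30). FUZ had its nearest profiles in PRR14 (0.17) and CENPA (0.17), the centromeric histone, and both of these shared its step between the guides: PRR14 had means of 6.36 with sg1-THAP1 and 6.98 with sg2-THAP1, against 5.99 in sgControl and 6.26 in untransduced cells.

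PIGV and CSAD had the same nearest gene, C7orf25 (0.22 and 0.21), with means of 3.98 in sgTHAP1, 2.86 in sgControl and 3.94 in untransduced cells. PCED1A (0.27) was next for PIGV and SPSB2 (0.22) for CSAD. TMEM101 was most like TOPORS-AS1 (0.30) and TMEM79 (0.32), and MAMSTR most like HFM1 (0.27), a meiotic helicase that had means of 2.69 in sgTHAP1, 1.78 in sgControl and 3.47 in untransduced cells, and RP11-98I9.4 (0.28). Within the 9 genes the closest pairs were AK9 with EHD3 (0.21), PIGV with CSAD (0.21) and TMEM101 with PIGV (0.23), and the most distant were TOMM40L and MAMSTR (1.11). The closest pair with 1 gene of each pattern was FUZ with PIGV (0.54).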

How the data were processed

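Strand-specific polyA RNA sequencing covered 15 HEK-293T libraries, grouped by their labels. Per the study's methods the authors used Cutadapt, HISAT2 (GRCh38) and SeqMonk, and they deposited log2 RPM values per gene, with 0 reads listed as 0.9 of a read. The sources used here give neither the annotation release nor the strand setting of the counting. Whole reads were recovered from the steps between low values: 99.7% to 99.9% of values were whole within 0.01 of a read, and every other value had at least 17830 reads. The authors' own columns of means and log2 fold changes were not used.

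Genes at log2 -2 or above in 3 or more libraries (16787) were fitted with limma 3.58.1 in R 4.3.3 (lmFit, eBayes with trend, Benjamini-Hochberg over these genes), with 3 coefficients for sgTHAP1, sgControl and untransduced cells or 5 for single guides. The first fit counts libraries of both guides as replicates, and p-values measure the spread between libraries. The 9 genes, lists and motifs were chosen with earlier results of these data known. Besides the 9, the text names their neighbours, the 2 largest differences per list and direction at an adjusted p under 0.05, marker genes and the 2 most similar profiles per gene. Some genes are also named to show the makeup of a list. The 19 neighbours given leave out another one, which is not reported here. Code was tested on simulated data. Alternatives were other filters on low genes, a pseudocount of 0.5 RPM, quantile normalization, median centring of each library, voom on the recovered reads, a replicate block, fits by guide, a shorter promoter window and each library left out in turn.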

Additional observations from a re-analysis of the deposited data

Results flagged for a closer look

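For 7 of the 9 genes the difference from sgControl was not the same with the 2 guides against THAP1, by the test between sg1-THAP1 and sg2-THAP1 libraries (limma over all genes). The log2 differences, sg1-THAP1 minus sg2-THAP1, were -0.99 for FUZ (adjusted p = 3.35e-21), -0.74 for MAMSTR (0.0143), -0.68 for TOMM40L (4.03e-15), -0.64 for TMEM17 (0.00384), -0.36 for EHD3 (5.9e-04), -0.31 for PIGV (0.0265) and -0.18 for TMEM101 (0.00428). Over all tested genes 40.0% differed between these guides and 28.3% were lower in sg1-THAP1. TMEM101 and PIGV did not pass after quantile normalization (adjusted p = 0.102 and 0.16) or median centring (0.223 and 0.145), PIGV also without any 1 of 4 libraries (0.0682 to 0.0875), and MAMSTR did not pass with no filter (0.0605) or without replicate 2 of sg1-THAP1 (0.146) or of sg2-THAP1 (0.0765). In each of the 7 genes all 3 sg1-THAP1 libraries were below all 3 sg2-THAP1 libraries. The share of all tested genes separated in this way was not counted, so nothing is read from it. No library stood apart by Dixon's ratio in the 18 groups of 6 libraries examined, where chance gives about 1 in 20. Each group pooled 2 guides, so a gap between the guides can hide a library that is apart within its guide. For MAMSTR sg1-THAP1 replicate 2 was at -0.28 log2 RPM, against 0.55 and 0.48 in the other sg1-THAP1 libraries.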

How the results depend on the processing

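The number of genes called between sgTHAP1 and sgControl cells was 366, and 177 with a pseudocount of 0.5 RPM, which shrinks differences of low genes, and 338 to 388 with a library left out. Of the 9 genes, 7 differed between sg1-THAP1 and sg2-THAP1, 5 after quantile normalization or median centring and 5 to 7 with a library left out; between sg1-Control and sg2-Control it was 0, and 0 to 1 with a library left out. Of the list genes 71 differed (69 to 77 with a library left out, 93 with 1 coefficient per guide), and of the neighbours 13 (10 to 14 with a library left out). Between the THAP1 guides 4744 of all tested genes were lower and 1963 higher in sg1-THAP1, against 2962 and 3014 after quantile normalization and 2673 and 3737 after median centring; of the 9 genes those that passed were lower in all 3 scalings. Genes called with more than 2-fold were 58 higher and 308 lower as deposited, 107 and 209 after quantile normalization and 104 and 229 after median centring. The difference of sgTHAP1 from untransduced cells turned to 0.14 for MAMSTR and 0.28 for PIGV after quantile normalization and to 0.0051 for CSAD and 0.07 for PIGV after median centring; the cause was not tested. Libraries with the same replicate number did not deviate together (correlations of -0.13 to 0.04 over genes, 0 of 30 pairs over 0.1, and 0 of 15 libraries nearest to their own number in every group). These values cannot tell whether such libraries were handled together, which the labels do not give. With the replicate block the calls were 351 genes, 7 and 0 of the 9 genes, 71 list genes and 13 neighbours. MAMSTR, GALNT14, NTN5, NAGS and TSKS are limited by their few reads.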
